A study of Mus musculus with 8 samples.

Results

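A set of 9 genes of the oligodendrocyte lineage was followed in the fetal mouse brain after prenatal stress, *Olig1*, *Olig2*, *Pdgfra*, *Sox10*, *Nkx2-2*, *Mbp*, *Cnp*, *Bcas1* and *Sox8*. They were taken by name from the gene-level RNA-seq tables, which listed 54752 genes, and each of the 9 was found there and passed the filter on low counts, which kept 17865 genes. The libraries came from 8 wild type brains at E15.5, 1 library per brain, of the strain C57BL/6 by the labels and C57BL/6Slac by the study's methods. The stress group, made up of the females F34 and F35 and the males M28 and M29, came from dams under chronic unpredictable mild stress (CUMS), a changing schedule of mild stressors that ran through most of the pregnancy until the day before collection. The control group, made up of the females F36 and F37 and the males M30 and M31, came from dams that were not stressed. The study's library list gives 1 litter for the 4 control brains and 1 other litter for the 4 stressed brains, so an effect of litter cannot be told apart from one of stress, and each p-value describes the spread among littermates. The list describes the tissue as a part of the whole brain, whereas the study's methods describe whole fetal brains, with forebrain, midbrain and hindbrain. A batch for these libraries is not given in the sources used here.

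Oligodendrocytes are the myelinating cells of the central nervous system. Their precursors arise in waves from the ventral neural tube and later from more dorsal germinal zones, under sonic hedgehog and other signals, and they migrate and divide in response to the growth factor PDGF-AA through the receptor encoded by *Pdgfra*. The transcription factors OLIG1, OLIG2, NKX2-2, SOX8 and SOX10 direct their specification and maturation, whereas MBP, CNP and BCAS1 belong to cells that are starting to make myelin or have made it. At this fetal age precursors are present and myelin has not formed. Several of these genes are also used elsewhere, *Olig1* and *Olig2* in ventral and subpallial progenitors, *Pdgfra* in meningeal fibroblasts, *Sox10* and *Sox8* in neural crest glia, and *Mbp* through its Golli transcripts in neurons, which the gene-level counts include.

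Library totals ranged from 25320109 to 29105710 counts, and the least counted of the 9 genes, *Nkx2-2*, had 121 to 173 reads per brain and *Olig1* had 1004 to 1495. The counting error at the lowest count was 9.09% for *Nkx2-2*, 8.54% for *Sox10*, 6.84% for *Bcas1* and 3.16% for *Olig1*. A single library, stress M28, stood apart from the other 7 in genes of tissue around the brain. *Col1a1*, a fibrillar collagen of meninges and other connective tissue, was at 11.7 CPM (counts scaled to an equal library total, with TMM factors) in stress M28 and between 0.850 and 4.27 CPM in the other 7 brains, and *Col3a1*, another fibrillar collagen, was at 21.3 CPM in stress M28 and between 4.72 and 10.6 CPM in the others. *Sox10* and *Mbp* were also highest in this brain, and values that rest on it are therefore given with and without it.

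The stretches just upstream of 2 members are shown so that a gene that fell, *Pdgfra*, can be set beside one that did not pass the test, *Olig2*. They are RefSeq sequences of the assembly GRCm38.p6, the patched form of the mm10 build, on the plus strand, 250 bases at chr5:75152001-75152250 for *Pdgfra* and 157 bases at chr16:91225300-91225456 for *Olig2*. Capitals mark E-boxes, the letters CANNTG read on either strand, to which OLIG1, OLIG2 and other basic helix-loop-helix factors can bind.
Pdgfra: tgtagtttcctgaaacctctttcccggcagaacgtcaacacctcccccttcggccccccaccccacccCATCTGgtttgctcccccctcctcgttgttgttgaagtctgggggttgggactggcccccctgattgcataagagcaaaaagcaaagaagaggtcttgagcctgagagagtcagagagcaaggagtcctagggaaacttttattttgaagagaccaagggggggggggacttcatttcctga
Olig2: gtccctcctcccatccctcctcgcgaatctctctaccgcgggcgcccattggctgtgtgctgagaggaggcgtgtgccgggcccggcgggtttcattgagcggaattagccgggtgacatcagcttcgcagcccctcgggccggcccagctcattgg
The printed stretch of *Pdgfra* held 1 E-box and that of *Olig2* none, with a GC content of 54.4% and 66.9%. In the full promoter windows, 250 bases before to 50 after the start, *Pdgfra* had 2 E-boxes, *Nkx2-2* 3, *Cnp* 1, *Sox8* 1 and *Olig2* 0, and 72.3% of the 32851 windows in the table held at least 1. The SOX motif ACAANG was found once each in *Olig2*, *Pdgfra* and *Cnp* and in 41.2% of all windows, and the GC box GGGCGG occurred 2 times each in *Olig2*, *Cnp* and *Sox8*, once in *Nkx2-2* and in 35.7% of all windows. Such matches describe the letters of these windows and do not show that a factor binds there. Windows of the other 4 members were not used here.

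Between stressed and control brains, *Olig1* and *Pdgfra* fell, *Bcas1* rose, and the other 6 genes did not pass the test. *Olig1* was lower by 16.5% and *Pdgfra* by 19.1%, while *Bcas1* was higher by 21.1%. These counts, 1 of 9 higher and 2 of 9 lower, stand against a background of 6.49% of all 17865 tested genes called higher and 7.27% called lower by edgeR's quasi-likelihood test in a model of sex and condition, at an adjusted p (Benjamini-Hochberg over all tested genes) under 0.05. The median Log2FC (stress vs. control) was -0.05 over the 9 genes and 0.0015 over all tested genes. The groups did not overlap for 4 of the 9 members, *Olig1*, *Olig2* and *Pdgfra* with every stressed brain below every control and *Bcas1* with every stressed brain above, and they did not overlap for 16.4% of all tested genes. In whole tissue, fewer cells of a type and less RNA per cell cannot be told apart.

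**Figure D1:**
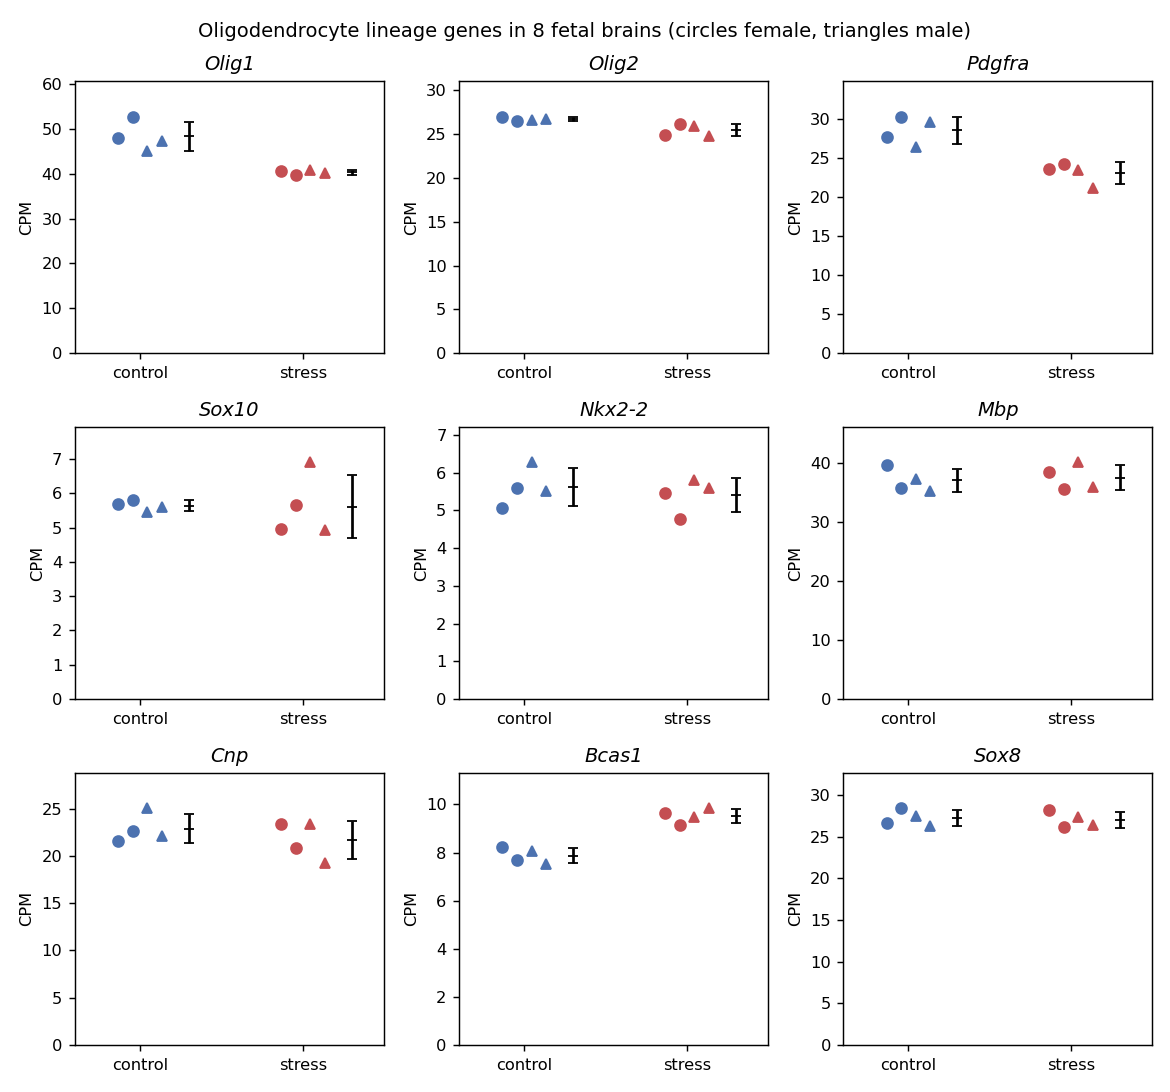
Expression of the 9 genes in CPM (vertical axes, from 0) in control brains (blue) and stressed brains (red), with circles for females, triangles for males, and black bars for the mean and SD of the 4 brains. *Olig1* and *Pdgfra* lie lower in the 4 stressed brains (39.7 to 40.8 and 21.1 to 24.2 CPM), *Bcas1* lies higher (9.13 to 9.85 CPM), and *Sox10* has 1 high stressed brain at 6.90 CPM.

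Among the transcription factors, *Olig1* (ENSMUSG00000046160.6, mm10 chromosome 16, 91269772 to 91271933, plus strand) was at 48.0 and 52.7 CPM in the control females F36 and F37 and at 45.1 and 47.3 CPM in the control males M30 and M31. Under stress it was at 40.6 and 39.7 CPM in females F34 and F35 and at 40.8 and 40.1 CPM in males M28 and M29. The stressed brains were close to each other and below the lowest control, with means of 48.3 ± 3.21 CPM in controls and 40.3 ± 0.515 in stressed brains (SD, n = 4 each). The Log2FC was -0.26 (SE 0.04, 95% interval -0.35 to -0.17, edgeR adjusted p = 0.000149). *Olig1* remained called without any single brain, with an adjusted p of at most 0.00212. Of its exon bases, 7.26% are shared with the antisense gene *Gm15966*, which had 0 to 2 counts per library.

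*Olig2*, its neighbour on the same chromosome (91225457 to 91228677, plus strand) and the factor on which the whole lineage depends, differed less. It was at 27.0 and 26.5 CPM in the control females F36 and F37 and at 26.6 and 26.7 CPM in the control males M30 and M31. Under stress it was at 24.95 and 26.2 CPM in females F34 and F35 and at 26.0 and 24.8 CPM in males M28 and M29. The 4 stressed brains lay below the 4 controls, but by a Log2FC of -0.07 (SE 0.04, 95% interval -0.16 to 0.02), and *Olig2* was not called (edgeR adjusted p = 0.352). The counting error at its lowest count was 3.88%.

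*Nkx2-2*, a homeodomain factor of ventral progenitors that later times differentiation, was at 5.06 and 5.61 CPM in the control females F36 and F37 and at 6.28 and 5.52 CPM in the control males M30 and M31. Under stress, females F34 and F35 had 5.47 and 4.78 CPM and males M28 and M29 had 5.82 and 5.60 CPM. The groups overlapped, and the Log2FC was -0.05 (SE 0.09, 95% interval -0.24 to 0.14, edgeR adjusted p = 0.779). Of its exon bases, 9.67% are shared with the antisense gene *Nkx2-2os*, which had 0 to 2 counts.

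*Sox10*, the factor that switches on myelin genes in both central and peripheral glia, was at 5.68 and 5.82 CPM in the control females F36 and F37 and at 5.44 and 5.59 CPM in the control males M30 and M31. Under stress it was at 4.96 and 5.65 CPM in females F34 and F35 and at 6.90 and 4.94 CPM in males M28 and M29. The stressed brains lay on both sides of the controls, with an SD of 0.920 CPM against 0.158 in controls. The counting error at the lowest count of *Sox10* was 8.54%, and the difference in spread was not tested. The Log2FC was -0.01 (SE 0.10, edgeR adjusted p = 0.982), and without stress M28, the brain with the high collagen values, it was -0.13 (SE 0.10, edgeR adjusted p = 0.438).

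*Sox8*, a relative of *Sox10* that acts with it in this lineage and is also present in progenitors, was between 26.3 and 28.4 CPM in controls and between 26.1 and 28.2 CPM in stressed brains. These ranges nearly coincide, and the Log2FC was -0.01 (SE 0.04, 95% interval -0.10 to 0.08, edgeR adjusted p = 0.918). Of its exon bases, 10.6% are shared with *2810468N07Rik* on the other strand, which had 62 to 104 counts.

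*Pdgfra* (ENSMUSG00000029231.15, chromosome 5, 75152292 to 75198215, plus strand), the growth factor receptor by which precursors are usually recognised, was at 27.7 and 30.2 CPM in the control females F36 and F37 and at 26.4 and 29.6 CPM in the control males M30 and M31. Under stress it was at 23.5 and 24.2 CPM in females F34 and F35 and at 23.4 and 21.1 CPM in males M28 and M29. The groups were separate, with means of 28.5 ± 1.76 CPM in controls and 23.1 ± 1.37 in stressed brains (SD, n = 4 each). The Log2FC was -0.31 (SE 0.05, 95% interval -0.41 to -0.20, edgeR adjusted p = 0.000187), and without stress M28 it was -0.33 (edgeR adjusted p = 0.000431). *Pdgfra* remained called without any single brain, with an adjusted p of at most 0.00219.

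Among the genes of differentiating cells, *Bcas1* (ENSMUSG00000013523.13, chromosome 2, 170346991 to 170427845, minus strand), which marks oligodendrocytes that are beginning to make myelin, was at 8.23 and 7.69 CPM in the control females F36 and F37 and at 8.05 and 7.52 CPM in the control males M30 and M31. Under stress it was at 9.63 and 9.13 CPM in females F34 and F35 and at 9.48 and 9.85 CPM in males M28 and M29. Each stressed brain was above the highest control, and the Log2FC was 0.28 (SE 0.07, 95% interval 0.13 to 0.43, edgeR adjusted p = 0.0113). *Bcas1* remained called without any single brain, with an adjusted p of at most 0.0461. The call depended on the tool, with an adjusted p of 0.130 in DESeq2 over all genes with a count and 0.0522 in DESeq2 over the genes that passed the filter. By DESeq2 over all genes with a count, *Olig1* and *Pdgfra* were the 2 members called, against 3.6% of those 34568 genes. Many of these genes did not pass the filter on low counts, which all 9 members passed, so this share is a low background for them. Of the exon bases of *Bcas1*, 12.6% are shared with the antisense genes *Bcas1os1* and *Bcas1os2*, which had 1 to 9 counts.

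*Mbp*, which encodes the main cytoplasmic protein of compact myelin, was at 39.7 and 35.9 CPM in the control females F36 and F37 and at 37.3 and 35.3 CPM in the control males M30 and M31, and at 38.5 and 35.6 CPM in the stressed females F34 and F35 and at 40.1 and 35.9 CPM in the stressed males M28 and M29. The groups overlapped, and the Log2FC was 0.02 (SE 0.05, 95% interval -0.08 to 0.12, edgeR adjusted p = 0.841) with all brains and -0.02 (SE 0.05, adjusted p = 0.831) without stress M28. *Cnp*, a phosphodiesterase of the myelin sheath, was between 21.6 and 25.1 CPM in controls and between 19.2 and 23.4 in stressed brains. The lowest brain for *Cnp* was stress M29 and the highest control M30, and the Log2FC was -0.08 (SE 0.06, 95% interval -0.20 to 0.05, edgeR adjusted p = 0.465). *Cnp* shares 4.23% of its exon bases with *Dnajc7*, which had 5040 to 6063 counts.

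**Figure D2:**
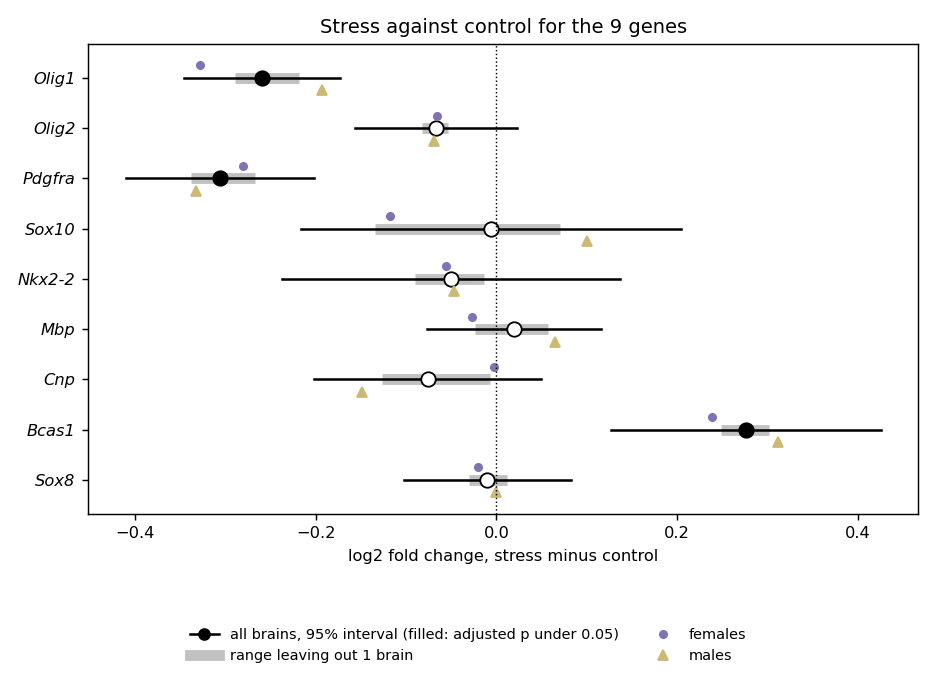
Log2FC of stress vs. control (horizontal axis) for the 9 genes from the fit of all 8 brains (black circles, filled where the edgeR adjusted p is under 0.05, with 95% intervals), its range when 1 brain is left out (grey bars), and the fits of females alone (small circles) and males alone (triangles). *Olig1*, *Pdgfra* and *Bcas1* stand clear of 0, and the grey bar of *Sox10* runs from -0.13 to 0.07.

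Per kilobase of exons, the 9 genes spanned a wide range in control brains. *Olig1* was highest at 22.3 ± 1.49 FPKM (CPM per kb of exons, SD, n = 4), above 86.9% of the tested genes, followed by *Olig2* at 10.5 ± 0.0908, *Sox8* at 8.73 ± 0.296 and *Cnp* at 6.28 ± 0.420 FPKM. *Mbp* followed at 4.41 ± 0.235, *Pdgfra* at 2.84 ± 0.175, *Bcas1* at 2.09 ± 0.0860, *Nkx2-2* at 1.95 ± 0.174 and *Sox10* at 1.85 ± 0.0517 FPKM. The ranges of neighbours in this order overlapped for *Bcas1* with *Nkx2-2* and for *Nkx2-2* with *Sox10*, and were separate for the other pairs of neighbours. In stressed brains the level of *Olig1* was 18.6 ± 0.238 FPKM, that of *Pdgfra* 2.30 ± 0.136 and that of *Bcas1* 2.52 ± 0.0804. The mean level of *Bcas1* lay above that of *Pdgfra* in stressed brains and below it in controls. This order rests on the exon lengths used, 3775 bases for *Bcas1* and 10024 for *Pdgfra*, and was not tested. In CPM *Pdgfra* was above *Bcas1* in both groups, with means of 28.5 against 7.87 in controls and 23.1 against 9.52 in stressed brains.

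**Figure D3:**
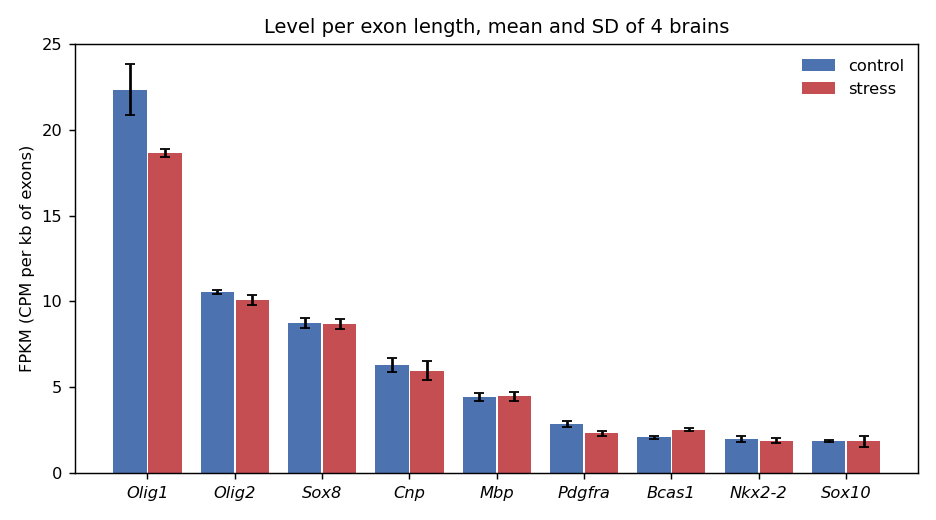
Level per exon length (vertical axis, FPKM, from 0) of the 9 genes, ordered by the control level, as the mean with SD of 4 control brains (blue) and 4 stressed brains (red). *Olig1* is the highest in both groups at 22.3 and 18.6 FPKM, and *Bcas1*, *Nkx2-2* and *Sox10* in controls lie between 1.85 and 2.09 FPKM.

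The study collected both sexes, so the comparison was repeated within each, with 2 brains against 2. In females *Olig1* had a Log2FC of -0.33 (SE 0.06, edgeR adjusted p = 0.000867) and *Pdgfra* of -0.28 (SE 0.07, adjusted p = 0.0185), and in males the values were -0.19 (SE 0.06, adjusted p = 0.0255) and -0.33 (SE 0.07, adjusted p = 0.00227). These were the 2 members called in each sex, where 3.91% of tested genes were called in females and 8.49% in males. *Bcas1* had a Log2FC of 0.24 in females (edgeR adjusted p = 0.246) and 0.31 in males (adjusted p = 0.0688). DESeq2 called 0 of the 9 within either sex. Its share of all genes called within each sex was not counted, so this 0 cannot be set against a background. The sex by stress interaction compares the effect in males with that in females. It was called for 0 of the 9 members by edgeR and by DESeq2. Over all genes, edgeR called 0.0056% and DESeq2 called 2 genes. At an unadjusted p under 0.05 there were 0 members in either tool, and 1128 of 17865 genes in edgeR. With so small a share, 0 of 9 is not a result about the members. The unadjusted share over all genes in DESeq2 was not counted. For *Olig1* the difference of the male from the female Log2FC was 0.14 (95% interval -0.03 to 0.30), for *Pdgfra* -0.05 (-0.26 to 0.16) and for *Sox10*, whose male value includes stress M28, 0.22 (-0.20 to 0.64).

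Ratios of 2 members within a library do not depend on the scaling of that library. The log2 ratio of *Olig1* to *Olig2* was 0.83 and 0.99 in the control females F36 and F37, 0.76 and 0.83 in the control males M30 and M31, 0.70 and 0.60 in the stressed females F34 and F35, and 0.65 and 0.69 in the stressed males M28 and M29. Each stressed brain was below each control, and the means differed by -0.19 (exact permutation test, two-sided, p = 0.0286, adjusted over 4 ratios p = 0.0571). The ratio of *Pdgfra* to *Olig2* was between -0.01 and 0.19 in controls and between -0.24 and -0.09 in stressed brains, a difference of -0.24 with the same p and adjusted p. With 4 brains against 4, 0.0286 is the smallest p this test can give, and neither ratio passed after adjustment over the 4 ratios. The ratios of *Sox10* to *Olig2* (difference 0.05, exact permutation p = 0.857) and of *Sox8* to *Sox10* (difference 0.0071, exact permutation p = 0.971) overlapped between the groups.

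The genes most like *Olig1* across the 8 brains, by the root mean square difference of their centred log2 CPM, were *Rhov* (0.0351), *AI854703* (0.0403), *St6galnac6* (0.0406), *Tmem158* (0.0420) and *Phyhip* (0.0422), where *Olig1* itself varied by 0.142 around its mean. Those most like *Olig2*, which varied by 0.0417, were *Plcl1* (0.0153), *Ptpn9* (0.0160), *Rtn1* (0.0188), *Maged2* (0.0198) and *Cd81* (0.0203). No other member of the 9 was among the 5 nearest of either gene. A list of 5 out of 17865 tested genes is too short to show whether the members vary together.

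Other genes enriched in precursors fell or did not pass the test. Of 12 such genes, 11 were tested, 0 were called higher and 4 lower, with a median Log2FC of -0.09. The shares over all tested genes were 6.49% called higher and 7.27% called lower. *Gpr17*, a receptor of committed precursors, fell from 12.1 ± 0.728 to 9.79 ± 0.785 CPM (Log2FC -0.31, edgeR adjusted p = 0.00384), and each stressed brain was below each control. *Cspg5*, a membrane proteoglycan, fell from 174 to 149 CPM (Log2FC -0.22, adjusted p = 1.28e-05), and *Lhfpl3* (Log2FC -0.22, adjusted p = 0.0072) and the channel subunit gene *Cacng4* (Log2FC -0.13, adjusted p = 0.00297) were the other 2. These 4 genes remained called without any single brain. *Cspg4*, which encodes the NG2 proteoglycan of precursors and of pericytes, was at 13.6 ± 0.444 CPM in controls and 12.3 ± 1.07 in stressed brains and was not called (Log2FC -0.14, adjusted p = 0.165). *Cspg5* and *Cacng4* are also expressed in neurons. Of 7 neuronal markers, 4 were called lower, and between 2 and 4 over the alternative fits. The part of neurons in the values of *Cspg5* and *Cacng4* was not tested.

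Among regulators of the lineage, more genes were called higher than lower. Of 19 transcription and chromatin factors, 19 were tested, 6 were called higher and 1 lower, with a median Log2FC of 0.13. Over all tested genes, 6.49% were called higher and 7.27% lower. *Sox5* rose from 125 ± 2.59 to 148 ± 2.18 CPM (Log2FC 0.24, edgeR adjusted p = 3.66e-06) and *Myt1* from 90.8 ± 3.06 to 107 ± 2.54 CPM (Log2FC 0.24, adjusted p = 2.14e-05), in both genes with every stressed brain above every control. *Sox6* rose by 0.14 on the log2 scale (adjusted p = 0.00874), the deacetylase gene *Hdac1* by 0.13 (adjusted p = 0.0216) and *Nfia* by 0.13 (adjusted p = 0.0106). *Zeb2* fell by 0.11 (adjusted p = 0.0125). These genes also act in neuronal progenitors or neurons. *Myrf*, the factor required to start myelination, was at 2.01 ± 0.308 CPM in controls and 2.33 ± 0.454 in stressed brains (Log2FC 0.21, adjusted p = 0.437). *Sox5* and *Myt1* remained called without any single brain. The call of *Hdac1* was lost without control F37, control M31 or stress M29, that of *Nfia* without control F37 or stress F35, that of *Sox6* without stress F34 and that of *Zeb2* without control M31, and the number called higher was 3 without control F37. With DESeq2 over all genes with a count the number called higher was 4, and *Hdac1* was not called (adjusted p = 0.103).

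Levels of genes of mature myelin differed widely. *Mobp* had 0 to 7 counts per library and *Opalin* 0 to 2, and both were among the 5 of 20 myelin genes that did not pass the filter. *Mag*, an adhesion protein of the innermost myelin layer, was at 0.468 ± 0.0503 FPKM in controls (Log2FC -0.11, edgeR adjusted p = 0.699). Of the 15 myelin genes tested, 1 was called higher and 1 lower, with a median Log2FC of -0.05. These counts are near the shares over all tested genes, 6.49% called higher and 7.27% called lower. *Mog*, at 12.1 ± 0.159 FPKM in controls above *Mbp* and *Mag*, fell from 20.7 ± 0.271 to 18.5 ± 1.25 CPM (Log2FC -0.16, adjusted p = 0.0361), a call that was lost without control F37, M30 or M31 or stress M28 (adjusted p = 0.0721) or M29 and in DESeq2 (adjusted p = 0.259). *Cldn11*, a tight junction gene of myelin and also of meninges, was at 3.03 CPM in stress M28 and at least 0.387 CPM and at most 1.002 CPM in the other brains. Its Log2FC was 1.20 (adjusted p = 0.0159) with that brain and 0.58 (adjusted p = 0.218) without it, and the call was also lost without control F37 or M31 and in DESeq2 (adjusted p = 0.490). Without stress M28, 1 other myelin gene was called higher and 0 lower.

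Of 19 genes of signals that favour the lineage, 19 were tested, 3 were called higher and 1 lower. For this list and the next, the shares over all tested genes were 6.49% called higher and 7.27% called lower. The hedgehog transducer gene *Smo* rose by 0.15 on the log2 scale (edgeR adjusted p = 0.0109), the hedgehog co-receptor gene *Boc* by 0.16 (adjusted p = 0.0142) and *Fgfr3*, a receptor for fibroblast growth factors, by 0.21 (adjusted p = 0.000662). *Pdgfa*, which encodes the ligand of the receptor made from *Pdgfra*, was between 14.2 and 16.8 CPM in controls and between 12.3 and 14.7 in stressed brains, and fell by 0.27 (adjusted p = 0.0043). The ranges of *Pdgfa* overlapped in 1 stressed brain, F35, and 26.1% of its exon bases are shared with another gene. Of 13 genes of signals that restrain the lineage, 13 were tested, 4 were called higher and 1 lower. *Dll1* (0.16, adjusted p = 0.00646) and *Notch1* (0.13, adjusted p = 0.0399) encode a ligand and a receptor of Notch signalling, *Id4* (0.09, adjusted p = 0.0294) an inhibitor of basic helix-loop-helix factors and *Fzd1* (0.11, adjusted p = 0.0306) a Wnt receptor. *Lingo1*, an inhibitor of differentiation that neurons also express, fell by 0.17 (adjusted p = 0.000646). *Fgfr3*, *Pdgfa*, *Dll1* and *Lingo1* remained called without any single brain. The call of *Smo* was lost without control F37 and that of *Boc* without control M31 or stress F34. *Id4*, *Notch1* and *Fzd1* each remained called in 3 of the 8 fits that left out 1 brain, and the number of restraining genes called higher was 1 without control F36 and 1 without control F37. With DESeq2 over all genes with a count, 1 favouring gene (*Fgfr3*) and 2 restraining genes (*Dll1* and *Id4*) were called higher.

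Markers of other cell types, only some of which express members of the 9, were read in the same fit. In that fit 6.49% of all tested genes were called higher and 7.27% lower. Radial glia markers, which mark the progenitors, had 4 of 8 called higher (*Sox2*, *Pax6*, *Nes* and *Vim*) and 0 lower. Their median Log2FC was 0.05, with a range from -0.10 to 0.14, and 1 of them was called lower without control M31. Their summed CPM overlapped, at 1529 to 1623 in controls and 1559 to 1686 in stressed brains. All 5 genes of dividing cells were called higher, with a median Log2FC of 0.24. Of 8 tested astrocyte markers, 3 were called lower, *Aqp4* with a Log2FC of -0.61 (edgeR adjusted p = 0.000294), *Gfap* with -0.76 (adjusted p = 0.0231) and *Sparcl1* with -0.24 (adjusted p = 3.95e-05). The neuronal markers called lower were *Syp*, *Rbfox3*, *Stmn2* and *Snap25*. Of 5 endothelial markers, 3 were called lower, *Flt1* (Log2FC -0.41), *Kdr* (-0.29) and *Cldn5* (-0.13). No marker of microglia (6 tested) or of motor and serotonin neurons (8 tested) was called, and of 5 erythroid genes *Hba-x* and *Hbb-y* were called higher and *Hbb-bs* lower. Among these, *Gfap* remained called in 2, and *Stmn2*, *Snap25* and *Cldn5* each in 3, of the 8 fits that left out 1 brain, *Sox2* lost its call without stress M28, *Nes* without control F37, stress F34 or stress M29, and *Hbb-bs* without control F37 or stress F34. DESeq2 over all genes with a count did not call *Nes*, *Gfap*, *Snap25* or *Cldn5*. How far these other cells enter the values of the 9 genes was not tested.

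Markers of tissue around the brain that can also express *Pdgfra* or *Sox10* were highest in stress M28. The 11 genes of meninges and mural cells summed to 127 to 135 CPM in controls and to 131 to 176 CPM in stressed brains, with 138 CPM in stress F34, 142 in stress M29 and 176 in stress M28 above the highest control. Of the 10 tested, *Col1a1*, *Col1a2* and *Col3a1* were called higher, against 6.49% of all tested genes. Without stress M28 *Col3a1* was the one still called, while *Col1a2* was also lost without control M30 or M31. DESeq2 called 0 of these genes, over all genes with a count and over the genes that passed the filter. The 8 genes of neural crest glia summed to 35.7 to 42.5 CPM in controls and to 38.0 to 46.2 CPM in stressed brains, the highest again stress M28. In each stressed brain the summed meningeal and neural crest levels lay within or above the range of the controls. *Pdgfra* lay below the range of the controls in each stressed brain. The 11 genes mix markers of meninges with those of mural cells, so their sum does not measure one cell type. The part of these cells in the values of *Sox10* and *Pdgfra* was not tested.

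**Figure D4:**
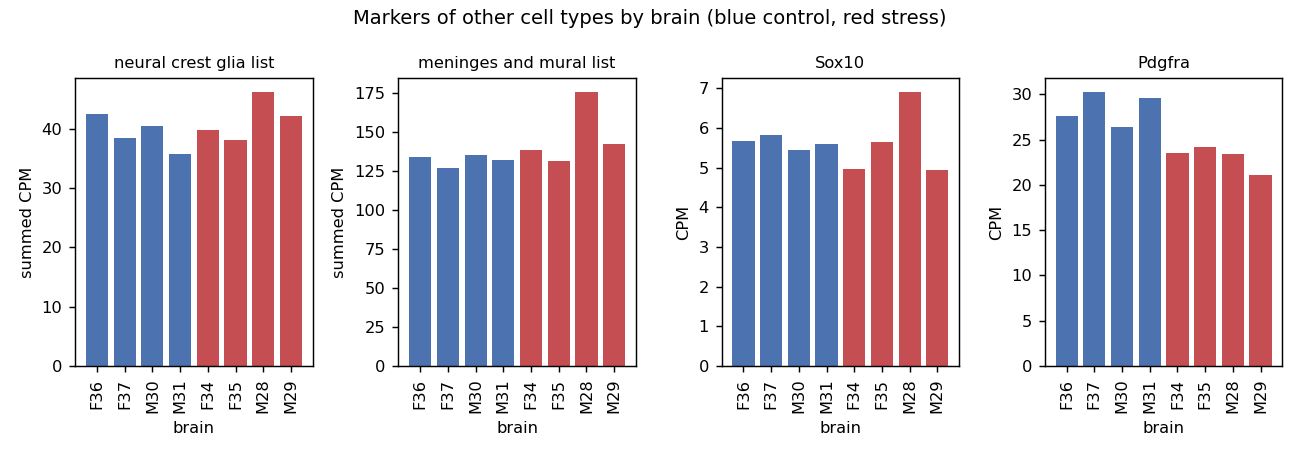
Summed CPM of 8 neural crest glia genes and of 11 meningeal and mural genes, and CPM of *Sox10* and *Pdgfra* (vertical axes, from 0), in each brain (blue control, red stress). Stress M28 is the highest in the first 3 panels (46.2, 176 and 6.90 CPM), and in the panel of *Pdgfra* it lies among the other stressed brains at 23.4 CPM.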

How the data were processed

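RNA of 8 E15.5 brains was sequenced, 4 control and 4 stress. Per the study's methods, reads were cleaned by the authors (Trim Galore), mapped to mm10 (TopHat2 2.1.1) and assigned as pairs to exons of GENCODE genes (featureCounts 1.6.3), with no option given for strand, multiply mapped reads or overlapping genes. The deposited values are raw counts per gene, not normalized, between 25320109 and 29105710 per library. Of 54752 identifiers, 54723 were matched to a symbol.

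Genes were filtered with filterByExpr (minimum count 10, by group). TMM factors were then computed and the genes tested with edgeR 4.0.16 (glmQLFit and glmQLFTest, sex and condition in the model) in R 4.3.3, with Benjamini-Hochberg adjustment over 17865 genes and calls at an adjusted p under 0.05. Intervals (95%) are the estimate with t quantiles of its SE. The females, the males and a sex by stress interaction were fitted too. Within-library log2 ratios were compared by exact permutation. Steps across all genes were tested on simulated data. The 9 genes and all lists were chosen with earlier results of these data known, so no list is independent evidence. The text names the 9 genes, the called genes of the lists, further lineage genes (*Mag*, *Mog*, *Mobp*, *Myrf*, *Cspg4* and *Gpr17*), defining markers near 0, and the 5 genes nearest to *Olig1* and to *Olig2*. *Col1a1* and *Col3a1* were singled out for stress M28 after their values were seen. Some genes of these lists are counted but not reported here. Alternatives were DESeq2 1.42.0, other normalizations, no filter, no sex covariate and each brain left out. DESeq2 on the filtered genes, and every alternative applied to the lists, were added after seeing the data. Batch, a term of the study's model, is not given for these libraries and was not fitted.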

Additional observations from a re-analysis of the deposited data

How the results depend on the processing

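*Olig1* and *Pdgfra* were called lower under each of the 14 alternatives to the fit of all brains, and *Bcas1* was called higher under 12 of 14. The number of members called higher was 0 with DESeq2 over all genes with a count and 0 over the filtered genes, against 1 with edgeR, with an adjusted p for *Bcas1* of 0.130 and 0.0522. The number called lower was 0 in females and 0 in males with DESeq2, and 0 in males with no filter on low counts, against 2 each. The shares of all genes called in these fits were not counted, and the cause was not tested. Leaving out 1 brain turned the direction of 3 genes that were not called, with a Log2FC between -0.135 and 0.070 for *Sox10*, between -0.023 and 0.057 for *Mbp* and between -0.031 and 0.011 for *Sox8*. Over all alternatives the number called lower was 4 to 5 among precursor genes and the number called higher was 3 to 7 among regulators, 1 to 3 among favouring and 1 to 4 among restraining signals, 0 to 1 among myelin genes and 0 (DESeq2) to 5 among meningeal genes. Counts under 200 reads for *Sox10* and *Nkx2-2* limit what could be seen in these genes. No paired analysis was possible because each brain has its own animal number in the labels.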
